A study of Mus musculus with 9 samples.

Results

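Nuclear-encoded genes of the mitochondrial respiratory chain were followed in virus-specific memory T cells of the mouse spleen. The set held 78 genes of the 48663 named entries of the count table: those whose symbols start with Ndufa, Ndufb, Ndufc, Ndufs, Ndufv, Uqcr, Cox4 to Cox8 or Atp5, together with Sdha, Sdhb, Sdhc and Sdhd, and that had at least 90 counts summed over 9 libraries. Assembly factors named Ndufaf and pseudogenes marked -ps were left out. By symbol, 37 of the genes belong to complex I, 4 to complex II, 8 to complex III, 12 to complex IV and 17 to complex V, and all 78 passed the low-count filter that left 15738 genes for testing. Symbols gave the complex, so Ndufa4, which is now assigned to complex IV, stands with complex I, and 3 genes that are not subunits came in with the rest: Cox7a2l, a supercomplex assembly factor, Atp5s and Atp5sl.

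RNA was sequenced from T cells of mice infected with lymphocytic choriomeningitis virus, strain Armstrong, and studied at day 30 of infection, with 3 libraries in each of 3 groups. CD4 control cells bound the I-Ab tetramer loaded with the viral GP66 peptide and came from Ox40-Cre- mice. CD4 ThpokAD cells bound the same tetramer and came from Ox40-Cre+ Thpok fl/fl mice, in which Cre, driven by the promoter of Ox40 (Tnfrsf4), a receptor of activated T cells, removes Thpok (Zbtb7b), the transcription factor that maintains the CD4 helper fate. CD8 control cells bound the H-2Db tetramer loaded with GP33 and came from Ox40-Cre- mice. The labels give no Thpok allele for the Cre- groups and no age, and only the ThpokAD mice carried Cre. Effects of Cre and of the deletion therefore cannot be told apart, nor can lineage, peptide and tetramer between CD8 control and the CD4 groups. The comparison of both CD4 groups with CD8 control addresses whether helper cells that lose Thpok after activation take on features of CD8 cells.

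The respiratory chain passes electrons from NADH (complex I) and succinate (complex II) through ubiquinone, complex III and cytochrome c to oxygen at complex IV, and complex V, the ATP synthase, uses the proton gradient that complexes I, III and IV build. Most subunits are encoded in the nucleus and imported, while a small core of complexes I, III, IV and V is encoded by mitochondrial DNA, so both genomes must supply matched parts. Memory T cells are known for relying on oxidative phosphorylation and for keeping spare respiratory capacity.

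Promoter windows of the members were read from RefSeq (GRCm38.p6, 250 bases before to 50 after each start), and 64 of the 78 members had one. The windows of Ndufs7, the member with the most stable difference between groups, of Ndufa8 and Sdhd, which were also called, and of Uqcrc1, a subunit of complex III that holds the NRF1 letters near its start, are printed because these results return below. They lie at chr10:80249199-80249498 (+ strand), chr2:36049289-36049588 (- strand), chr9:50603800-50604099 (- strand) and chr9:108936398-108936697 (+ strand). Capitals mark every match to 7 short motifs, searched on both strands. They are CGCATGCG, the core of the site of NRF1, a regulator of respiratory genes, and TGCGCA, a shorter NRF1-type site that can overlap it. CCGGAAG is an ETS site as used by the factor GABP, and AANATGGC is a site of YY1. General promoter motifs were searched as well, of which CCAAT is the CAAT box. GGGCGG is a site of Sp1, a factor of many housekeeping promoters. CACGTG is the E box.
Ndufs7: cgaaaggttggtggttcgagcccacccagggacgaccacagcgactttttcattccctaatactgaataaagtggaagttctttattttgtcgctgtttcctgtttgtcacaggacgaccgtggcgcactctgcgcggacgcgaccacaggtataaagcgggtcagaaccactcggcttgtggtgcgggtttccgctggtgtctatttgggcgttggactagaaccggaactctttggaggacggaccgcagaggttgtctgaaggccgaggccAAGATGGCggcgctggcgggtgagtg
Ndufa8: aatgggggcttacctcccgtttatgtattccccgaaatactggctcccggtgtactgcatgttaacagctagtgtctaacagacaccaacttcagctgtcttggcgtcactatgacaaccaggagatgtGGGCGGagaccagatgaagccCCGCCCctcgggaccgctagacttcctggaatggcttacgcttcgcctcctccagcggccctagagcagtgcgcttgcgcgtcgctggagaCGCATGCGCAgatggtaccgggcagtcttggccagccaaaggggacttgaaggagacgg
Sdhd: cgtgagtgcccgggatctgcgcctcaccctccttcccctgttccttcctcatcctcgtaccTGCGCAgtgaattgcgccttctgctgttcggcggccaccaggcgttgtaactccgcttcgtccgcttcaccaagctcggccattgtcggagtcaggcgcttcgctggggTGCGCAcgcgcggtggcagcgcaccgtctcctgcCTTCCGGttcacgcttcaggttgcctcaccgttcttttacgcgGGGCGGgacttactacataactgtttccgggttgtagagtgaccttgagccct
Uqcrc1: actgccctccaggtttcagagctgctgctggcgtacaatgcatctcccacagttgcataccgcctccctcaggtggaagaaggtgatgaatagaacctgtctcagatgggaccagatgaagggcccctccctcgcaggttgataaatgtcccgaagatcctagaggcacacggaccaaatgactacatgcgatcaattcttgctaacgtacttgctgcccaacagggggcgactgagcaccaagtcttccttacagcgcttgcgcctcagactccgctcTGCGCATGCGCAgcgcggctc
The Ndufs7 window held 1 match, to the YY1 letters, close to its 3' end. The Ndufa8 window held the NRF1 core overlapping a short site, with Sp1 letters on both strands upstream. The Sdhd window held 2 separate short sites, 1 ETS match and 1 Sp1 match, and the Uqcrc1 window held 1 core overlapped by 2 short sites. Over all members with a window, the NRF1 core was present for 14.06%, against 2.068% of the 27025 genes with a window in the table. The short site stood in 26.56% against 8.792%, the ETS letters in 25% against 9.928%, and the YY1 letters in 25% against 6.96%. Shares were close for CCAAT (42.19% against 41.06%), GGGCGG (40.62% against 38.2%) and the E box (7.812% against 8.093%). A match is only a match of letters, and the overlap of the core with the short site means that those counts are not separate.

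The targeted gene was read first as a check of the labels. Levels are CPM, counts scaled to a common library size with TMM factors. Zbtb7b had 38.5, 47.6 and 48.9 CPM in the CD4 control libraries, 0.698, 0.875 and 0.849 in ThpokAD and 24.0, 19.4 and 18.8 in CD8 control. ThpokAD libraries lay far below both other groups (log2 fold change -5.79 ± 0.26 SE against CD4 control, edgeR quasi-likelihood test, adjusted p = 3.35e-05). Total counts were 16664474 to 22796339 in 8 libraries and 38981516 in the third CD8 control library. Summed T cell markers (9 of 9 in the table) were 7007 to 8672 CPM, and Cd4 with Cd40lg and Zbtb7b summed to 1742 to 1860 CPM in CD4 control, 671 to 823 in ThpokAD and 21.1 to 30.5 in CD8 control. Cd8a with Cd8b1 summed to 17.7 to 27.9, 90.7 to 123 and 2827 to 3827 CPM in the same order. B cell markers (8 genes, mostly Ighm) summed to 481 to 650, 271 to 467 and 245 to 780 CPM, plasma cell markers (4 genes) to 367 to 413, 258 to 306 and 148 to 418, and myeloid markers (10 genes) to 267 to 369, 376 to 472 and 130 to 372. Dendritic markers (8 genes) summed to 355 to 788, 546 to 973 and 316 to 379 CPM, NK cell markers (5 genes) to 17.1 to 21.5, 132 to 199 and 208 to 232, erythroid markers (6 genes) to 4.05 to 118, 6.58 to 102 and 11.8 to 52.2, and markers of stroma and endothelium (4 genes) to 124 to 142, 71.9 to 97.9 and 56.1 to 83.9. Several of these sums rested on few genes. The stroma and endothelium sum was nearly all Pecam1, with Col1a1, Col1a2 and Cdh5 at 0 to 0.763 CPM. The NK cell sum was mostly Klrb1c and Eomes, with Ncr1 at 0 to 7.73 CPM. The plasma cell sum was mostly Xbp1, except in CD8 control replicate 2, where Jchain had 285 CPM. Genes of the dendritic sum went opposite ways. Itgax was at 12.5 to 15.1 CPM in CD4 control and 188 to 248 in CD8 control. H2-Ab1 was at 151 to 382 CPM in CD4 control and 47.7 to 60.8 in CD8 control, and H2-Aa and H2-Eb1 were also lower there. The part of all these markers in the results below was not tested. Of 5 genes of brown fat and muscle, tissues rich in respiratory chain, Ucp1, Myh7 and Cidea had no count.

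The third CD8 control library stood apart for these genes. It was the highest of the 9 libraries for 48 of the 78 members (61.5%), against 16.7% of all genes tested. The median of the members, as log2 distance from the CD4 control mean, was 0.55 in that library, 0.16 and 0.21 in the other CD8 control libraries, 0.14 to 0.22 in ThpokAD and -0.02 to 0.06 in CD4 control. The medians over all genes stayed between -0.02 and 0.08. Summed levels, medians and counts of calls that rest on CD8 control are therefore also given without that library where it moves them. The map of members by library shows it as a red column that is broken by a few blue rows such as Cox7a2l, Uqcrfs1 and Atp5l.

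**Figure D1:**
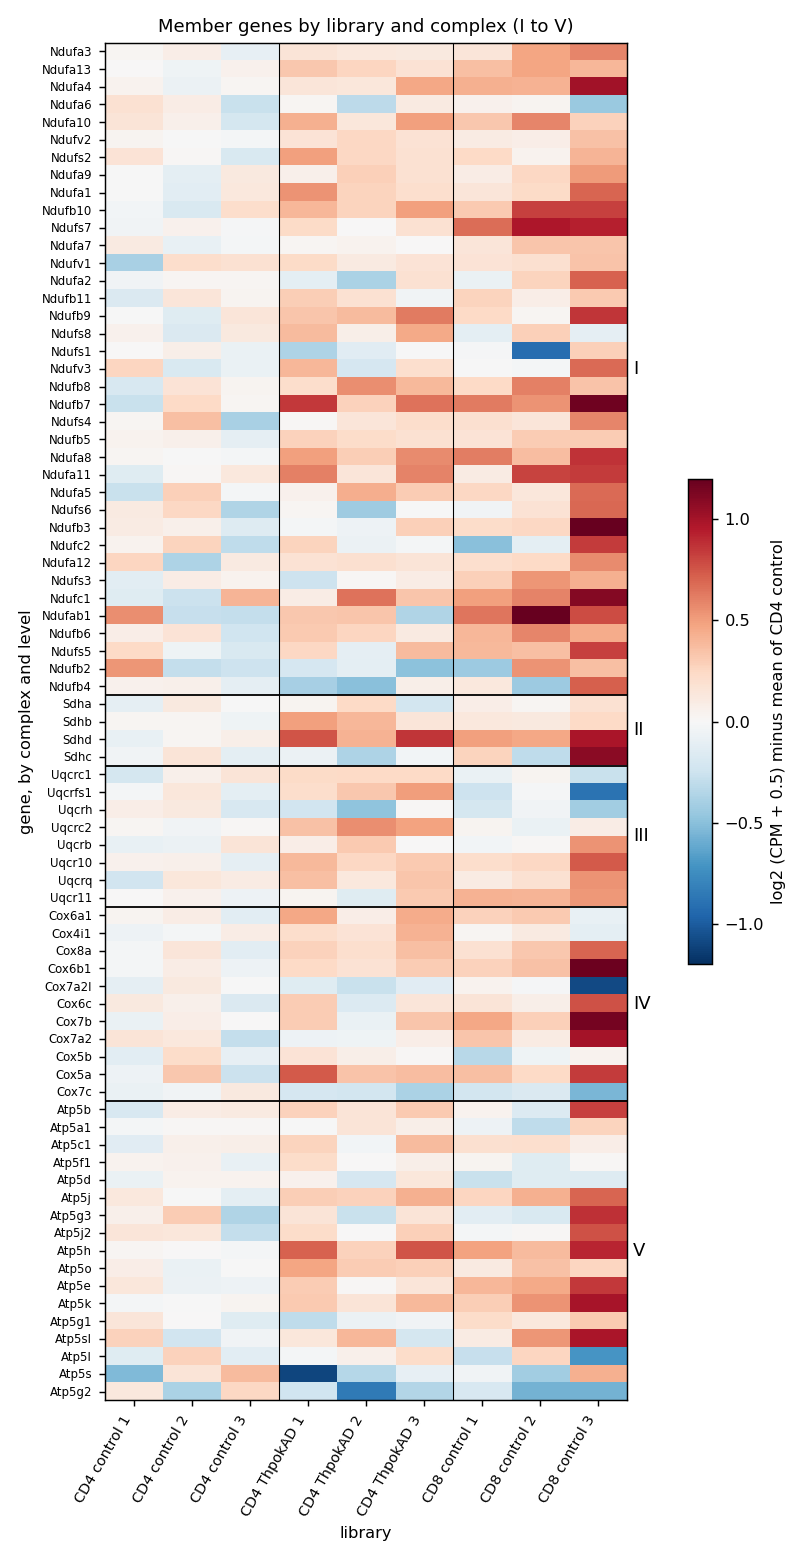
Rows are 77 members (Cox6b2, at the count limit, is left out) grouped by complex I to V and ordered by level, columns are the 9 libraries, and colour is log2 (CPM + 0.5) minus the mean of the CD4 control libraries. Most rows are redder in the ThpokAD and CD8 control libraries than in CD4 control, and most strongly in CD8 control replicate 3, where the median member was 0.55 above the CD4 control mean.

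Summed over all members, the level was lowest in CD4 control, and neither other group overlapped it. The sums were 8338, 8818 and 8391 CPM in CD4 control, 9865, 9256 and 9979 in ThpokAD, and 9166, 9307 and 11264 in CD8 control. Mean sums were thus 1.14 times the CD4 control value in ThpokAD and 1.16 times in CD8 control, with SDs of 263, 388 and 1172 CPM over 3 libraries in the order CD4 control, ThpokAD, CD8 control. When CD8 control replicate 3 was left out, the CD8 sum was 1.08 times the CD4 control value, and ThpokAD turned from 0.979 times to 1.05 times CD8 control. For complex I the CD8 ratio to CD4 control went from 1.28 to 1.197, and for complex V from 1.13 to 1.003. In RNA from sorted bulk cells, a lower share of expressing cells and less RNA per cell cannot be told apart.

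By complex, 2 patterns appeared. Complex I sums were ordered CD4 control (2442 to 2531 CPM), ThpokAD (2722 to 2949) and CD8 control (2877 to 3654), with ThpokAD and CD8 control overlapping. Complex III sums were instead highest in ThpokAD, at 1303, 1313 and 1400 CPM, above all CD4 control libraries (1095, 1208 and 1171) and all CD8 control libraries (1107, 1185 and 1091). Sums weigh genes by their level, and not all complex III genes were placed this way. The median log2 fold change of its 8 genes in ThpokAD against CD8 control was -0.0054, with 3 above 0. Without CD8 control replicate 3 it was 0.14, with 6 above 0. Complex II sums overlapped between CD4 control (711 to 799 CPM) and both ThpokAD (756 to 902) and CD8 control (790 to 960). Complex IV sums were 1299 to 1446 CPM in CD4 control, 1414 to 1656 in ThpokAD and 1528 to 1735 in CD8 control, and complex V sums were 2660 to 2837, 2904 to 3219 and 2676 to 3823.

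**Figure D2:**
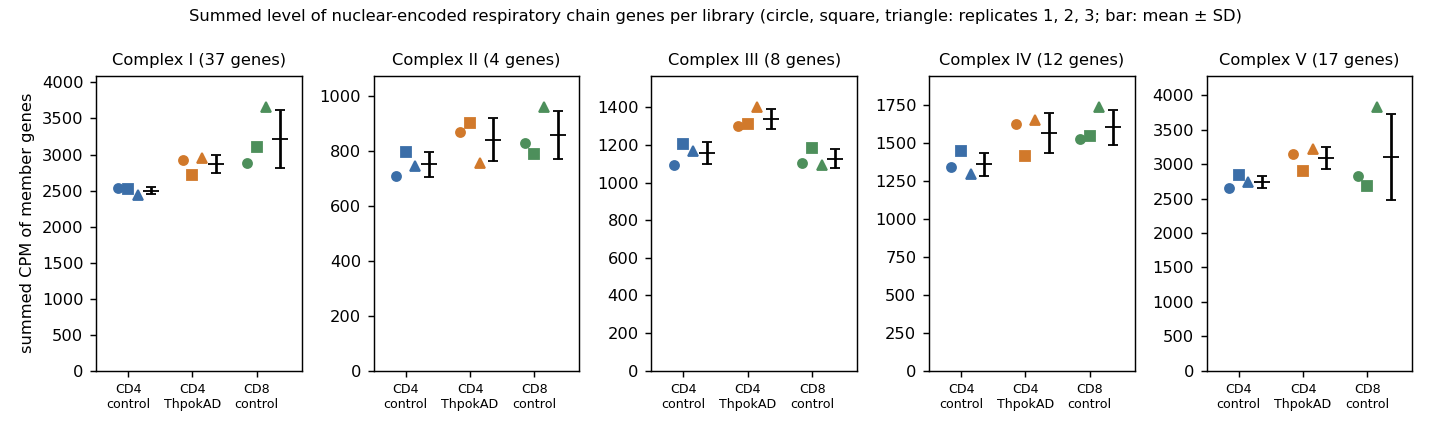
Each panel gives the summed CPM of the members of 1 complex in every library (circle, square and triangle for replicates 1, 2 and 3), with mean ± SD beside the points. In complex III the 3 ThpokAD libraries, at 1303 to 1400 CPM, lie above the 6 others, whereas in complex I both ThpokAD and CD8 control lie above CD4 control.

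Between ThpokAD and CD4 control, members were a little higher in the mutant cells, and no single member passed the test. The median log2 fold change was 0.17, against 0.0035 over all genes tested, and 62 of 78 members lay above 0. With edgeR, 0 members were called higher and 0 lower, beside a background of 1.81% of genes called higher and 0.928% called lower. At an unadjusted p under 0.05, 11 members were higher (14.1%, against 8.77% of all genes) and 0 lower (against 6.91%). DESeq2 called 3 members, Uqcrc2, Sdhd and Atp5h, all higher (3.85%, against 4.91% of all genes). Libraries did not overlap for 28 members that were higher, 35.9% of the set against a background of 13.2%, and for 2 that were lower (Cox7a2l and Cox7c), against 12.5%. Complex medians were 0.18 for I, 0.19 for II, 0.25 for III, 0.22 for IV and 0.11 for V. With single libraries left out they stayed above 0, and the medians of complexes II and III moved most, to 0.29 without ThpokAD replicate 3 for II and to 0.14 without CD4 control replicate 1 for III.

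Sdhd and Uqcrc2 came nearest to a call in the mutant. Sdhd, a membrane anchor subunit of complex II that helps hold ubiquinone, had 66.5, 71.9 and 74.3 CPM in the CD4 control libraries against 120, 94.7 and 129 in ThpokAD. The groups did not overlap, and the log2 fold change was 0.69 ± 0.18 (SE, edgeR adjusted p = 0.0916). Uqcrc2, a core protein of complex III, was at 129, 124 and 129 CPM in CD4 control and 162, 188 and 178 in ThpokAD (0.47 ± 0.11, edgeR adjusted p = 0.0626). Atp5h, subunit d of the stalk of ATP synthase, was at 77.6 to 80.3 CPM in CD4 control and 95.7 to 134 in ThpokAD (0.60 ± 0.18, edgeR adjusted p = 0.144). Its sequence has 4 near-identical copies in the genome, so its level is uncertain. Sdhb, the iron-sulfur subunit of complex II, was at 148 to 156 against 170 to 215 CPM (0.35 ± 0.12, adjusted p = 0.18).

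Other core subunits varied in how they lay to CD4 control, and 0 of them passed the test. Sdha, the flavoprotein that oxidizes succinate, was at 447 to 523 CPM in CD4 control and 415 to 572 in ThpokAD, and Sdhc, the other membrane anchor, at 39.5 to 48.0 against 33.2 to 42.0. Ndufs1, which carries iron-sulfur clusters of complex I, was at 83.9 to 92.9 against 68.2 to 88.2 CPM. Ndufv1, which binds NADH, was at 63.5 to 96.5 against 90.1 to 97.7. Cox5a, a core-associated subunit of complex IV, was at 33.9 to 51.0 against 51.7 to 68.1 CPM (0.48 ± 0.23, adjusted p = 0.365). Atp5a1 and Atp5b, the alpha and beta subunits of the catalytic head of ATP synthase, were at 612 to 625 against 619 to 692 and at 587 to 724 against 747 to 833 CPM. Cox5a and Atp5b lay above CD4 control without overlap, whereas Sdha, Sdhc, Ndufs1, Ndufv1 and Atp5a1 overlapped it. The lowest fold changes of each complex had adjusted p-values of 0.6 or more: Ndufb2 (-0.33), Sdhc (-0.16), Uqcrh (-0.23), Cox7c (-0.27) and Atp5s (-0.56). The highest in complex I was Ndufb7 (0.60 ± 0.23, adjusted p = 0.248) and in complex IV Cox6b2 (1.22 ± 1.47), which had 94 counts in all.

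**Figure D3:**
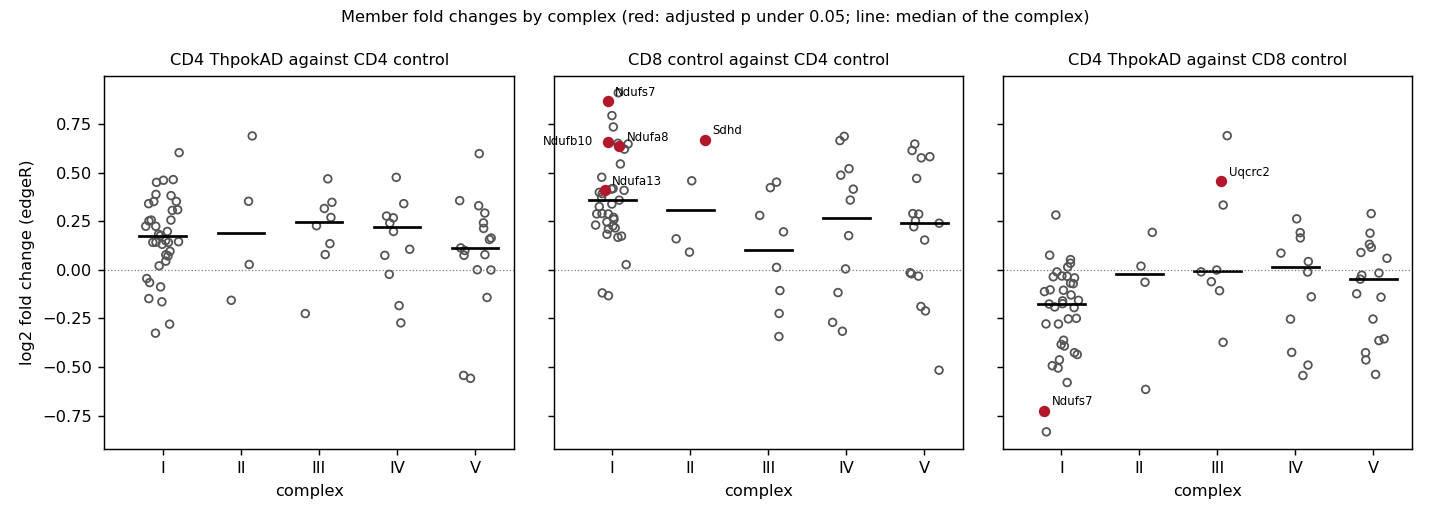
Each point is the log2 fold change of 1 member (77 shown, without Cox6b2), by complex, in the 3 comparisons. Red points passed an adjusted p under 0.05 and black lines are medians, Cox6b2 included. The complex I median lies above 0 against CD4 control in both left panels (0.18 and 0.36) and below 0 in the right panel (-0.17), where Ndufs7 is the red point at -0.73 and Uqcrc2 the red point at 0.46.

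Between CD8 control and CD4 control, complex I, with 37 of the 78 members, made up 4 of the 5 calls. Of the 78 members, 5 were called higher and 0 lower, beside backgrounds of 5.13% of genes called higher and 6.55% called lower, so the share of members called higher (6.41%) was near the background. With scaling by total counts alone, the split over all genes turned from 808 higher and 1031 lower to 1140 and 879. At an unadjusted p under 0.05, 26 members were higher (33.3%) and 0 lower, against 13.1% of all genes in each direction. The median log2 fold change was 0.29, against 0.01 over all genes, with 63 of 78 above 0, and DESeq2 called 14 members higher (17.9%, against 8.57% of all genes). Libraries did not overlap for 32 higher members (41.0% against a background of 17.3%) and for 2 lower ones, Atp5d and Cox7c (against 16.6%). In complex I, 35 of 37 genes lay above 0, with a median of 0.36, while the medians were 0.31 for complex II, 0.10 for III, 0.27 for IV and 0.24 for V.

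The third CD8 control library carried part of this. Without it, 56 of 78 members lay above 0, the median was 0.16, and only Ndufs7 was called. Calls over all genes fell as well, from 808 higher of 15738 tested to 492 of 16686. Complex I kept a median of 0.20, with 33 of 37 genes above 0, and complex II went to 0.08, III to -0.03, IV to 0.15 and V to -0.01. Higher members without overlap then numbered 33 (background 21.6%) and lower ones 3 (background 21.4%), with 19 of the 33 in complex I. The loss of calls was not particular to this library, since Ndufs7 was also the only member called in each fit that left out a CD4 control library.

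Ndufs7 was the member whose call against CD4 control held in every setting tried. It encodes a core subunit of complex I with the last iron-sulfur cluster before ubiquinone, and lies at chr10:80249121-80256794 (+ strand, mm10, GENCODE M21). Its level was 70.3, 74.99 and 71.4 CPM in CD4 control, 84.5, 72.3 and 82.2 in ThpokAD, and 115, 142 and 138 in CD8 control. CD8 control libraries lay above all 6 others, and ThpokAD overlapped CD4 control. Against CD4 control the CD8 level was 1.82-fold higher (log2 0.87 ± 0.13, edgeR adjusted p = 0.00343), and the call stayed in all 18 alternatives (adjusted p up to 0.0192). No other annotated gene shares exon bases with Ndufs7, and no near-identical copy was found. As shown above, its promoter window held a match to the YY1 letters and none to the others. That RefSeq window begins inside the gene as annotated in GENCODE M21, so it does not cover the bases before that annotated start.

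The other 4 calls were for accessory subunits of complex I and for Sdhd. Ndufa13 (GRIM-19, chr8:69894180-69902558) was at 129, 125 and 133 CPM in CD4 control, 162, 154 and 145 in ThpokAD, and 166, 179 and 171 in CD8 control (0.41 ± 0.10 for CD8 against CD4 control, edgeR adjusted p = 0.0334). The 3 groups were ordered without overlap, but Ndufa13 shares 375 exon bases with Tssk6 on the other strand, and the library kit did not mark strand. Ndufa8 (chr2:36036326-36049406), a subunit of the intermembrane face, was at 50.8, 49.5 and 49.1 CPM in CD4 control, 70.1, 61.4 and 74.2 in ThpokAD and 76.4, 64.4 and 91.1 in CD8 control (0.64 ± 0.16, edgeR adjusted p = 0.037). Both groups lay above CD4 control and overlapped each other. Ndufb10 (chr17:24722060-24724478), of the membrane arm, was at 75.7, 68.1 and 89.3, then 102, 93.1 and 109, then 95.9, 136 and 136 CPM (0.66 ± 0.18, edgeR adjusted p = 0.0421). Sdhd (chr9:50596357-50603812) was at 100, 98.1 and 140 CPM in CD8 control, overlapping ThpokAD and above every CD4 control library (0.67 ± 0.18, edgeR adjusted p = 0.045). Each of these 4 calls was lost in 10 or 11 of 18 alternatives, among them every fit without 1 CD4 control library and the fit without CD8 control replicate 3, with log2 fold changes that were 0.38 or more in all of them.

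**Figure D4:**
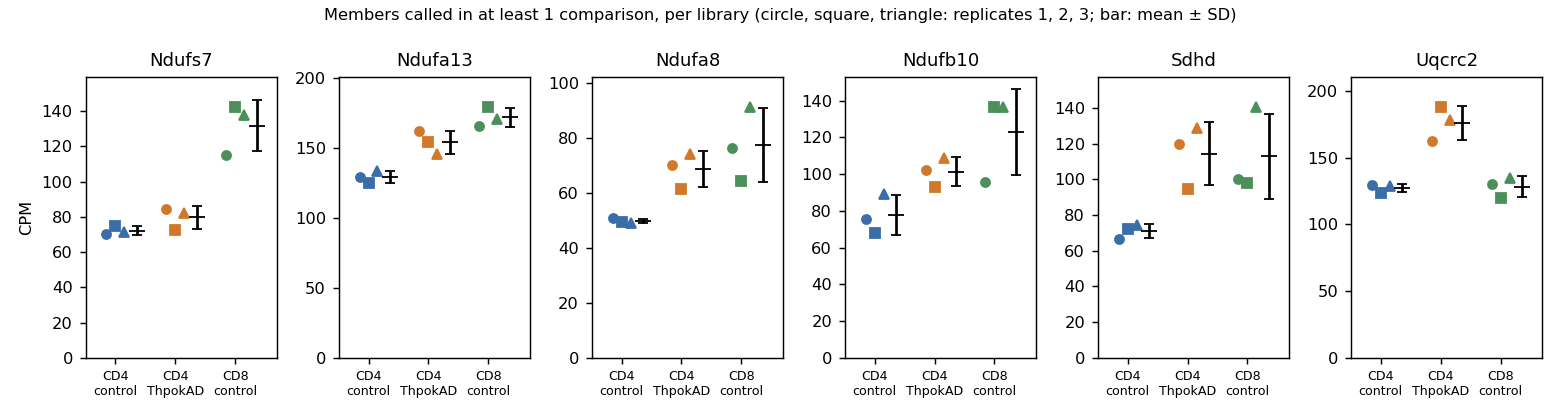
CPM of the 6 members called in at least 1 comparison, in every library (circle, square and triangle for replicates 1, 2 and 3) with mean ± SD. Ndufs7 is high in the 3 CD8 control libraries alone, at 115 to 142 CPM, Uqcrc2 in the 3 ThpokAD libraries alone, at 162 to 188 CPM, and Ndufa8 and Sdhd are above CD4 control in both other groups.

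Other members with high fold changes in CD8 control missed the test. Ndufab1, the mitochondrial acyl carrier protein, had the highest (0.91 ± 0.34, edgeR adjusted p = 0.121), from 14.7 to 26.9 CPM in CD4 control and 28.5 to 46.4 in CD8 control, and it has 2 near-identical copies. Atp5e (0.57 in the limma fit on log2 CPM, adjusted p = 0.0488) and Ndufa4 (0.62, adjusted p = 0.0482) were called there and missed edgeR's threshold with adjusted p-values of 0.0502 and 0.0509. In complex III the highest was Uqcr11 (0.45 ± 0.16, adjusted p = 0.114) and the lowest Uqcrfs1 (-0.34 ± 0.21, adjusted p = 0.346). In complex IV, Cox7b reached 0.69 ± 0.23 (adjusted p = 0.0898), and in complex V Atp5k reached 0.65 ± 0.21 (adjusted p = 0.0776). The lowest values were -0.13 for Ndufs1, 0.09 for Sdha, -0.87 ± 1.48 for Cox6b2 and -0.52 ± 0.46 for Atp5g2.

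Set directly against CD8 control, ThpokAD cells had lower values for most complex I genes and higher values, without overlap, for 3 complex III subunits. Among all members, 1 was called higher (Uqcrc2) and 1 lower (Ndufs7), beside backgrounds of 4.63% and 1.91%. The split over all genes was 729 higher and 301 lower, or 631 and 423 with scaling by total counts alone. At an unadjusted p under 0.05, 4 were higher (5.13%, against 12.2% of all genes) and 6 lower (7.69%, against 9.09%). DESeq2 called Uqcrc2 and Uqcrfs1 higher (2.56%, against 9.25%) and Ndufs7 lower. The median log2 fold change was -0.11, with 22 of 78 above 0, and complex I had a median of -0.17 with 32 of 37 genes below 0. Libraries did not overlap for 5 higher members (Uqcrc1, Uqcrc2, Uqcrfs1, Cox4i1 and Cox6b2), 6.41% of the set against a background of 14.6%. They did not overlap for 11 lower ones (14.1% against 12.6%), 7 of which were in complex I. Higher members without overlap were thus below the background share, and lower ones near it. Without CD8 control replicate 3, the median of all members was -0.02, and 26 of 37 complex I genes were below 0 with a median of -0.05. Without overlap, 12 of 78 members were then higher (background 20.3%) and 12 of 78 lower (background 19.3%). Since each pair of comparisons shares a group, their fold changes are not independent of one another.

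Ndufs7 was 1.65-fold lower in ThpokAD than in CD8 control (log2 -0.73 ± 0.13, edgeR adjusted p = 0.0137). The call was lost only in the fit without ThpokAD replicate 2, where the adjusted p was 0.0573. Uqcrc2 was higher in ThpokAD, at 162, 188 and 178 CPM against 130, 120 and 135 (0.46 ± 0.11, edgeR adjusted p = 0.0429), and CD8 control differed from CD4 control by 0.01 ± 0.11. This call was lost in 13 of 18 alternatives, including the fit without any single library (adjusted p 0.053 to 0.14). Uqcrc2 (chr7:120635176-120659524) shares 504 exon bases with Pdzd9 on the other strand.

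Uqcrc1 and Uqcrfs1, also of complex III, were placed like Uqcrc2. Uqcrc1, its partner core protein (chr9:108936633-108949623), was at 349, 424 and 451 CPM in CD4 control, 474, 478 and 480 in ThpokAD, and 384, 416 and 337 in CD8 control (ThpokAD against CD8 control 0.33 ± 0.12, edgeR adjusted p = 0.16). Uqcrfs1, the Rieske iron-sulfur protein (chr13:30540308-30545362), was at 178, 200 and 168, then 210, 227 and 258, then 153, 180 and 98.0 CPM (0.69 ± 0.21, edgeR adjusted p = 0.0913, DESeq2 adjusted p = 0.0161). ThpokAD libraries lay above all others for both genes, although neither passed edgeR's test. The small subunits were not placed this way: Uqcr11 was lower than in CD8 control (-0.37 ± 0.16, adjusted p = 0.229) and Uqcrh was at 133 to 188 CPM against 140 to 180. Cox4i1, the ubiquitous form of subunit 4 of complex IV, was at 257 to 285 CPM in CD4 control, 302 to 358 in ThpokAD and 247 to 288 in CD8 control (ThpokAD against CD8 control 0.26 ± 0.11, edgeR adjusted p = 0.218). Other extremes were Ndufs8 (0.28), Ndufab1 (-0.83), Sdhb (0.19), Sdhc (-0.62), Cox6b2 (2.08), Cox7a2 (-0.54), Atp5l (0.29) and Atp5s (-0.54), all with adjusted p of 0.191 or more.

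Transcripts of the mitochondrial genome were placed the other way. The 13 mitochondrially encoded subunit genes summed to 27241, 25827 and 17150 CPM in CD4 control, 15928, 12816 and 16680 in ThpokAD and 16269, 16443 and 6776 in CD8 control. CD4 control libraries lay above all others, and CD8 control replicate 3 was lowest. By complex, the mitochondrial genes of complex I summed to 7763 to 9434 CPM in CD4 control, 5611 to 6309 in ThpokAD and 2800 to 6226 in CD8 control, while those of complex IV overlapped (4932 to 11607, 3808 to 6777 and 2179 to 6766). The mitochondrial gene of complex III, mt-Cytb, was at 4256 to 5989 CPM in CD4 control, 2952 to 3762 in ThpokAD and 1679 to 3621 in CD8 control. With the 2 ribosomal RNAs included, all 15 genes had fold changes below 0 against CD4 control in both groups, with medians of -0.55 in ThpokAD and -0.74 in CD8 control. Of these, mt-Nd3 (-1.04 ± 0.26, edgeR adjusted p = 0.0317) and mt-Nd1 (-0.95 ± 0.25, adjusted p = 0.0388), both encoding subunits of complex I, fell in CD8 control, and 0 of 15 were called in ThpokAD, where 5 were lower at an unadjusted p under 0.05. The mt-Nd3 call was lost in 10 of 18 alternatives and the mt-Nd1 call in 9. Without CD8 control replicate 3, mt-Nd1, mt-Nd2 and mt-Nd5 were called lower in CD8 control, mt-Nd3 was not (adjusted p = 0.068), and 4 of 15 were called lower in ThpokAD.

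The ratio of nuclear to mitochondrially encoded sums followed from both. It was 0.306, 0.341 and 0.489 in CD4 control, 0.619, 0.722 and 0.598 in ThpokAD, and 0.563, 0.566 and 1.66 in CD8 control. Both groups lay above CD4 control without overlap, by 1.71 times in ThpokAD and 2.46 times in CD8 control, or 1.49 times in CD8 control without replicate 3. Cytosolic ribosomal protein genes summed to 18767 to 21907 CPM in CD4 control, 13549 to 17514 in ThpokAD, below every CD4 control library, and 9875 to 20318 in CD8 control, which overlapped both, with 0 of 81 called in ThpokAD (19 lower at an unadjusted p under 0.05) and 1 of 81 called lower in CD8 control. The part of these abundant transcripts in the members' share of counts was not tested.

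**Figure D5:**
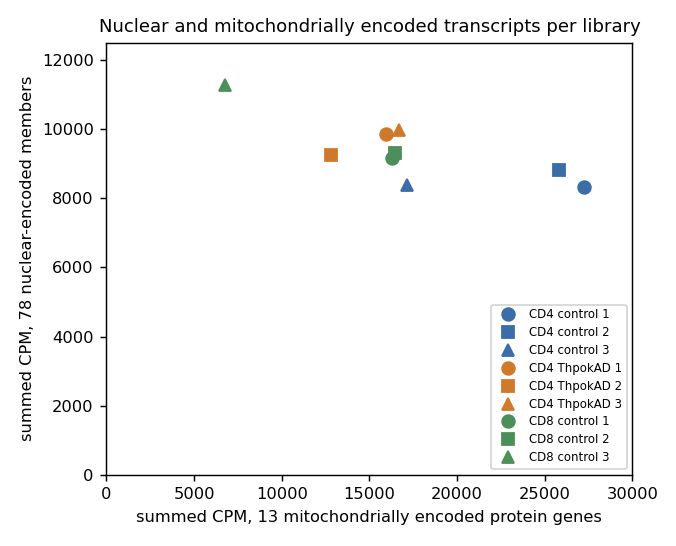
Summed CPM of the 78 nuclear-encoded members (vertical) against the 13 mitochondrially encoded subunit genes (horizontal), 1 point for each library. CD4 control libraries lie to the right, at 17150 to 27241 CPM of mitochondrial transcripts, with replicate 3 close to the ThpokAD and CD8 control points, and CD8 control replicate 3 alone at the upper left, at 6776 and 11264 CPM.

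Genes that build or feed the chain were read from lists of known genes. Of 47 assembly factors tested, 8 rose and 0 fell in CD8 control against CD4 control, 0 were called in ThpokAD against CD4 control (5 higher and 0 lower at an unadjusted p under 0.05), and the medians were 0.53 and 0.21. Over all genes tested, 5.13% were called higher and 6.55% lower in CD8 control against CD4 control. Uqcc3, needed to assemble complex III, rose from 14.2 ± 1.93 CPM in CD4 control to 36.6 ± 3.80 in CD8 control (SD, n = 3; 1.36 on the log2 scale, edgeR adjusted p = 0.00465), with 18.8 ± 3.26 in ThpokAD, lower than CD8 control (edgeR adjusted p = 0.0347, a call lost in 11 of 18 alternatives). Coa3, an assembly factor of complex IV, rose by 1.07 (adjusted p = 0.00562) and 2 assembly factors of complex I rose, Ndufaf1 by 1.26 (adjusted p = 0.0197) and Tmem126b by 1.66 (adjusted p = 0.0298). Coa3 shares 82 exon bases with Cntd1. Without CD8 control replicate 3, 3 of the 47 were called higher (Uqcc3, Coa3 and Taco1) and Coa7 lower, while Ndufaf1 (adjusted p = 0.0501) and Tmem126b (adjusted p = 0.083) missed the threshold. Against CD8 control, the 1 ThpokAD call (Uqcc3, lower) was then lost and Coa7 was called higher.

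Mitochondrial ribosome proteins, which translate the mitochondrial subunits, had the most calls of these lists in CD8 control against CD4 control. Their list is also longer than that of the assembly factors. Of 76 tested, 15 rose and 1 fell in CD8 control against CD4 control (median 0.51), beside 5.13% and 6.55% of all genes. In ThpokAD against CD4 control 3 rose and 0 fell (median 0.25), beside 1.81% and 0.928%. In ThpokAD against CD8 control 0 rose and 1 fell, beside 4.63% and 1.91%. Mrpl18 was at 36.1 ± 2.20 CPM in CD4 control, 59.95 ± 2.94 in ThpokAD and 73.3 ± 4.37 in CD8 control, and rose in both comparisons with CD4 control (adjusted p = 0.0266 and 0.00168). Mrpl40 rose by 1.17 in ThpokAD and 1.44 in CD8 control (adjusted p = 0.0179 and 0.00204). The others of smallest p were Mrpl49 and Mrpl44, which were 2.87-fold and 2.29-fold higher in CD8 control (adjusted p = 0.00189 and 0.00996), and Mrpl36, which rose by 0.86 in ThpokAD (adjusted p = 0.0459). Mrpl18 shares 141 exon bases with Tcp1, Mrpl44 126 with Wdfy1, Mrpl49 91 with Syvn1 and Mrpl36 30 with Ndufs6. Mrpl54 fell by 1.03 in CD8 control (adjusted p = 0.0128), and Mrpl49 was lower in ThpokAD than in CD8 control (-0.93, adjusted p = 0.031). The ThpokAD calls of Mrpl18, Mrpl36 and Mrpl40 against CD4 control were lost in 8, 10 and 5 of 18 alternatives, each of them without any 1 CD4 control library. Without CD8 control replicate 3, the CD8 count was 7 higher and 1 lower, and Mrpl49 was no longer called between ThpokAD and CD8 control (adjusted p = 0.0635).

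Regulators of mitochondrial biogenesis were split in direction, although those called against CD4 control fell. Of 23 tested, 0 rose and 4 fell in CD8 control, where 6.55% of all genes were called lower. There, 6 were higher and 6 lower at an unadjusted p under 0.05. The CD8 median was 0.21, with 13 of 23 above 0. In ThpokAD against CD4 control 0 were called (1 higher and 3 lower at an unadjusted p under 0.05), and 1 rose in ThpokAD against CD8 control. Polg2, an accessory subunit of the mitochondrial DNA polymerase, was at 98.3 ± 8.34 CPM in CD4 control, 57.2 ± 13.7 in ThpokAD and 13.9 ± 4.42 in CD8 control (-2.83 ± 0.27 for CD8 against CD4 control, edgeR adjusted p = 0.00025). It shares 132 exon bases with Milr1. Gabpb1, a subunit of the ETS factor GABP, fell by 1.81 on the log2 scale (adjusted p = 0.00289), Tfb2m, a mitochondrial transcription factor, by 1.58 (adjusted p = 0.032, a call lost in 8 of 18 alternatives), and Tfam, which packages mitochondrial DNA, by 0.83 (adjusted p = 0.0482), a call lost in 13 of 18 alternatives. The coactivator Ppargc1b (-0.96, adjusted p = 0.0598), the transcription factors Nrf1 (-0.34, adjusted p = 0.121) and Myc (0.34, adjusted p = 0.542) missed the threshold in CD8 control, and Ppargc1a did not pass the low-count filter. Without CD8 control replicate 3, 2 of the 23 were called lower, Polg2 and Gabpb1.

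Carriers around the chain changed gene by gene. Slc25a4, an ADP/ATP carrier of the inner membrane, was at 170 ± 0.726 CPM in CD4 control, 287 ± 31.4 in ThpokAD and 265 ± 48.8 in CD8 control (SD, n = 3). It rose in both comparisons with CD4 control, by 0.76 and 0.64 (edgeR adjusted p = 0.0344 and 0.0264), though leaving out any 1 CD4 control library ended both calls, with adjusted p-values of up to 0.128 and 0.0898. Slc25a3, the phosphate carrier that feeds ATP synthase, fell by 0.75 in CD8 control (575 ± 46.8 to 342 ± 41.0 CPM, adjusted p = 0.0066). It was higher in ThpokAD than in CD8 control by 0.54 (adjusted p = 0.0433), a call lost without any 1 library. In the fit without CD8 control replicate 3, Usmg5, a small ATP synthase-associated protein, was also called lower in CD8 control (-1.42, adjusted p = 0.00416), and Slc25a5 and Usmg5 were called higher in ThpokAD than in CD8 control. Among 18 electron carriers and entry enzymes 0 were called in ThpokAD against CD4 control with edgeR (3 higher and 0 lower at an unadjusted p under 0.05). Coq8a, needed for making ubiquinone, fell by 2.78 in CD8 control (101 ± 13.4 to 14.7 ± 1.55 CPM, adjusted p = 0.0008) and was higher in ThpokAD than in CD8 control by 2.26 (adjusted p = 0.00402), while Coq5, of the same pathway, rose by 0.90 (adjusted p = 0.00868). Coq8a shares 366 exon bases with Cdc42bpa. Cycs, cytochrome c, was at 8.40 to 11.2 CPM in CD4 control, 7.59 to 19.01 in ThpokAD and 9.01 to 10.5 in CD8 control.

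Enzymes of the tricarboxylic acid cycle, which supply NADH and succinate, gave no calls in any comparison. Of 17 tested, 7 were higher (against 8.77% of all genes) and 0 lower in ThpokAD against CD4 control at an unadjusted p under 0.05, with a median of 0.33. In CD8 control against CD4 control 1 was higher (against 13.1% of all genes) and 0 lower (median 0.20). In ThpokAD against CD8 control 2 of these enzymes were higher and 2 lower. Their sums were 2147 to 2329 CPM in CD4 control, 2623 to 2859 in ThpokAD and 2371 to 2651 in CD8 control, without overlap between any CD4 control library and the others. Of 5 uncoupling and related genes 0 were called with edgeR in any comparison over the 9 libraries (1 higher in CD8 control at an unadjusted p under 0.05). Ucp2, an uncoupling protein family member, was at 361 to 447, 439 to 461 and 278 to 795 CPM, the last value from CD8 control replicate 3. Without that library Ucp2 was called higher in ThpokAD than in CD8 control (0.60, adjusted p = 0.0347). Cell cycle genes moved with the ThpokAD group: 8 of 28 rose and 0 fell against CD4 control (background 1.81% called higher), and 11 rose against CD8 control (background 4.63%). Between CD8 and CD4 control 0 were called, and 3 were higher at an unadjusted p under 0.05. Without CD8 control replicate 3 the counts were 10 and 9 higher in ThpokAD, and Gins2 was called lower in CD8 control than in CD4 control. Their sums were 1068 to 1284 CPM in CD4 control, 2651 to 3660 in ThpokAD and 1090 to 1382 in CD8 control, and their part in the members' levels was not tested.

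Levels of the members themselves spanned a wide range. Per kilobase of merged exons, Cox6a1 was highest in all groups together (480 CPM per kb), above Cox8a (282) and Ndufa1 (249). Within complexes the highest and lowest were Ndufa1 and Ndufb2 (2.42) in complex I, Sdha (121) and Sdhc (14.5) in II, Uqcrh (137, level with Uqcrfs1 at 136) and Uqcrq (39.9) in III, Cox6a1 and Cox6b2 (0.475) in IV, and Atp5a1 (201) and Atp5g2 (2.09) in V. Some of these ranks differed between groups: the highest of complex III was Uqcrh in CD4 control (151), Uqcrfs1 in ThpokAD (170) and Uqcr10 in CD8 control (150), and the lowest of complex V in CD4 control was Atp5l (2.25) rather than Atp5g2 (2.63). Merged exons count every annotated isoform, so a gene with long rare isoforms is understated. The genes for subunit c of the ATP synthase ring, Atp5g1, Atp5g2 and Atp5g3, stood at 5.66, 2.09 and 55.3 CPM per kb, with near-identical copies elsewhere for Atp5g1 and Atp5g2. Tissue-restricted or alternative forms that missed the count limit of 90 had few or no counts: Cox4i2 had 20 counts in all 9 libraries, Cox6a2 34, Cox7a1 30, Cox8b 12, and Cox7b2, Cox8c and Ndufa4l2 had 0. Their common partners were well detected, with 271 to 411 CPM over the 9 libraries for Cox6a1, 110 to 260 for Cox6b1, 135 to 238 for Cox8a and 111 to 236 for Ndufa4. Cox7a2 was at 52.5 to 129 CPM and Cox7a2l at 72.6 to 167, and CD8 control replicate 3 was the highest library for the first and the lowest for the second. Just inside the limit stood Cox6b2 (94), then Atp5g2 (655) and Atp5s (1049).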

How the data were processed

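The authors deposited 1 table of whole-number counts per gene symbol for 9 libraries. A second deposited table holds a signal scaled by the authors: 100% of its values were whole counts (within 0.001) times 1 factor per library, and it was used only for an alternative scaling. Per the labels' protocols, RNA was isolated with a micro-column kit, amplified with a low-input kit and read as 126 bp pairs. Per the submitters' processing notes, bcl2fastq 2.17, Trimmomatic, STAR, HTSeq and DESeq2 were used with mm10. For the counting annotation and the strand setting, the entry is: not given in the sources used here.

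Groups were taken from sample titles, with 3 libraries each. Whether replicates were separate animals is not stated, so p-values measure only how these samples vary, and that variation may be technical. Counts were tested with edgeR 4.0.16 (R 4.3.3; TMM, filterByExpr with minimum count 10 and total 15, quasi-likelihood, 1 coefficient per group over all 9 libraries), with Benjamini-Hochberg adjustment over 15738 genes for each of 3 comparisons, and a gene was called at an adjusted p under 0.05. SE is the log2 fold change divided by the root of F. The test was also run on simulated counts. The planted changes were larger than those of most members, so that run does not measure how often member-sized changes are found. Alternatives used DESeq2 1.42.0, limma 3.58.1 (prior count 2), other scalings and filters, a replicate block, and leaving out each library. Coordinates and exon lengths are from GENCODE M21 (77 of 78 members matched). Copies were matches of at least 95% identity over 126 bases. The members and lists were chosen with earlier results of these data known. Named were called members, the highest and lowest of each complex, listed core subunits and alternative forms, and up to 4 called genes per list.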

Additional observations from a re-analysis of the deposited data

How the results depend on the processing

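Members called higher in CD8 control against CD4 control numbered 5 and moved most: 13 with total count scaling only, 14 with DESeq2, 1 without the low-count filter, 1 with only the 6 libraries compared, and 1 to 4 when each library was left out. Total count scaling alone also moved the median of all genes there to 0.12. In ThpokAD against CD8 control, the 1 higher member became 0 with total count scaling, without the filter and with 6 libraries, 2 with DESeq2, and 0 in every fit without 1 library, while the 1 lower member became 0 to 1 without single libraries. In ThpokAD against CD4 control the 0 higher members became 3 with DESeq2, and the median of 0.17 became 0.14 to 0.22 without single libraries. Fits without 1 library or with 6 libraries hold fewer samples, and the fit without the filter tests more genes. What moved the counts was not tested. The ratio of nuclear to mitochondrially encoded sums in ThpokAD against CD8 control, 0.695, ranged from 0.58 (without CD8 control replicate 1) to 1.14 without CD8 control replicate 3, which turned its direction. Over all genes, DESeq2 called 752 higher and 538 lower in ThpokAD against CD4 control (285 and 146 with edgeR), 1313 and 1664 in CD8 against CD4 control (808 and 1031) and 1417 and 754 in ThpokAD against CD8 control (729 and 301). When each library was left out, the lowest count in each direction was 131 and 50, 421 and 637, and 438 and 143, in the same order.

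Deviations of same-numbered libraries from their group means correlated at -0.05 to 0.06, and 2 of 9 libraries correlated best with their own number. Such deviations over all genes also hold the noise of each library, so they cannot show whether same-numbered libraries shared an animal or a sort. With a replicate block, 3 members were called higher in CD8 control (Ndufa4, Ndufs7 and Sdhd), and 0 higher and 1 lower in ThpokAD against CD8 control.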

Other observations

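Precision differed widely between members. The mean coefficient of variation within groups was 4.19% for Ndufa13, 5.03% for Ndufa7 and 5.22% for Uqcrc2, and 28.1% for Ndufc2, 30.1% for Ndufab1, 33.9% for Atp5s and 85.8% for Cox6b2. Of 77 members with an annotation entry, 25 had at least 1 near-identical copy and 28 shared exon bases with another gene, leaving 34 with neither, Ndufs7, Ndufa8, Ndufb10 and Sdhd among them. Across members, Spearman's rho between log2 fold change and exon length was -0.16 in ThpokAD against CD4 control and -0.26 in CD8 control against CD4 control (77 genes, which share libraries and are not independent replicates).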
